A study of Mus musculus with 2 samples.

Results

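The genes described here are 9 genes that mark or specify striatal projection neurons: the dopamine receptor genes Drd1 and Drd2, the gene Ppp1r1b for their effector DARPP-32, and the transcription factor genes Meis1, Meis2, Zfp503, Six3, Ebf1 and Ikzf1. They were looked up by symbol among the 19720 genes of a table of read counts from embryonic mouse forebrain, and all 9 were found. The table compares H2A.ZcKO, a conditional knockout of the histone variant H2A.Z, with H2A.Zfl/fl, the floxed control without the knockout, both on the strain C57BL/6. The control is titled WT, but its genotype field gives floxed alleles. Sample titles give embryonic day 16, a characteristics field gives day 12, the tissue is labelled telencephalic, and the protocol names dissected cerebral cortex. Neither the Cre driver nor the floxed exons nor any pooling of embryos is stated in the sources used. A design text speaks of triplicates, but the table holds 1 count column per genotype, so every difference sets 1 knockout library against 1 control library, with no replicate check.

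Striatal projection neurons are GABAergic neurons that arise in the lateral ganglionic eminence of the ventral telencephalon and make up most neurons of the striatum. They form a direct pathway, whose cells carry the D1 dopamine receptor, and an indirect pathway, whose cells carry the D2 receptor. In both, DARPP-32 couples dopamine signals to protein phosphatase 1. Transcription factors such as Meis2, Zfp503, Six3 and Ebf1 act earlier, while the cells leave the progenitor zone and take on either fate.

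The knockout library held 9028523 reads in genes and the control library 8474545. Of the listed genes, 14366 reached 20 reads when both libraries were summed, and these are called measured. Ratios are knockout over control after TMM scaling, which corrects library size for composition, and brackets hold exact 95% intervals (Clopper-Pearson, from how the reads of a gene divide between the libraries), which cover counting error only. The targeted gene H2afz had 535 reads in the knockout library and 1152 in the control library, a log2 ratio of -1.16 (-1.31 to -1.01), while its paralog H2afv had 1095 and 1009 reads. Neurod6, a factor gene of cortical glutamatergic neurons, was above each of the 9 striatal genes. It was at 329.9 RPKM (reads per length of exon and size of library) in the knockout library and 346.5 RPKM in the control library. A high level of this 1 gene cannot tell dissected cortex from whole telencephalon. Gene positions are on GRCm38.

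Of the 9 striatal genes, the knockout library was 1.5-fold or more above the control for 5, as far below for 0, and within 1.5-fold for 4. Ikzf1, Ebf1, Six3, Drd2 and Zfp503 were the higher genes, and Meis1, Meis2, Ppp1r1b and Drd1 the level ones. Among all 14366 measured genes, 3.52% were at least 1.5-fold higher and 5.43% at least 1.5-fold lower. All 5 higher genes were also beyond counting error, meaning that the interval excluded a ratio of 1, which held together with the 1.5-fold difference for 2.02% of measured genes on the higher side and 3.2% on the lower side. At 2-fold or more stood 4 of the 9, all but Zfp503 of the 5, against 0.961% of measured genes. Ratios above level were seen for 8 of the 9, against 50.4% of measured genes, but the Ppp1r1b ratio was so close to level that it fell below it when libraries were scaled by their totals. The median log2 ratio of the 9 genes was 0.9998, against 0.0018 for all measured genes. All 9 passed the read minimum in the sum of both libraries, but Drd2 did so with most of its reads in the knockout library. In bulk tissue, more cells of a type and more RNA per cell cannot be told apart.

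**Figure D1:**
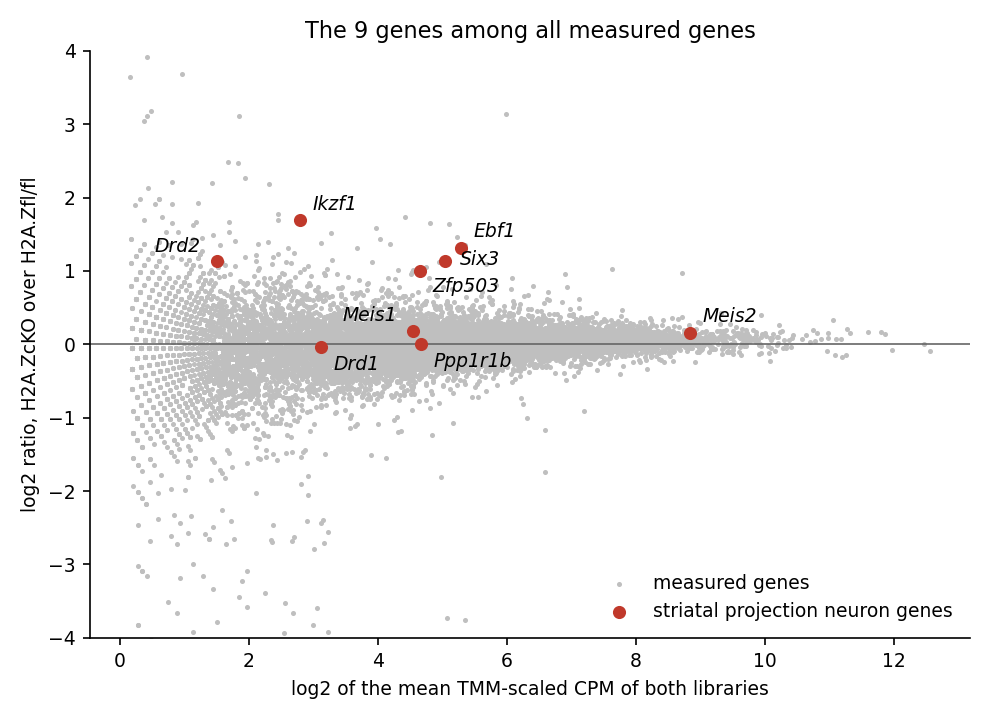
Each grey point is 1 of the 14366 measured genes, placed by the log2 of its mean TMM-scaled CPM in both libraries (x axis) and its log2 ratio of H2A.ZcKO over H2A.Zfl/fl (y axis), and red points are the 9 striatal genes. Of the red points 5 lie at log2 ratios of 0.9998 to 1.69 and the other 4 between -0.04 and 0.18, and 30 measured genes fall outside the plotted range.

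The dopamine receptor genes differed from each other. Drd1, which encodes the D1 receptor that stimulates cyclic AMP production in direct-pathway neurons, is located on chromosome 13, 54051186 to 54055658. Counts were 77 reads in the knockout library and 76 in the control library, or 8.63 and 8.86 TMM-scaled CPM, a log2 ratio of -0.04 (-0.51 to 0.44). Drd2, which encodes the D2 receptor that lowers cyclic AMP in indirect-pathway neurons and is also an autoreceptor of dopamine neurons, is located on chromosome 9, 49340662 to 49407214. Counts were 35 reads in the knockout library and 15 in the control library, or 3.92 and 1.75 TMM-scaled CPM, a log2 ratio of 1.14 with a wide interval (0.26 to 2.14), or 1.19-fold to 4.42-fold higher. The knockout library was thus higher for Drd2 and level for Drd1. Ppp1r1b, which encodes DARPP-32, had 228 reads in the knockout library and 219 in the control library, or 25.6 and 25.5 CPM, a log2 ratio of 0.00 (-0.27 to 0.28). It lies on chromosome 11 from 98348404 to 98357796, and its interval ran from 0.828-fold to 1.21-fold.

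The stretches upstream of the start sites of both receptor genes are shown for reference, from the only RefSeq start of Drd2 and the outer of 2 RefSeq starts of Drd1. They are RefSeq sequences on GRCm38.p6, read on the strand of the gene, and cover chr9:49340153-49340402 on the plus strand for Drd2 and chr13:54055706-54055908 on the minus strand for Drd1, where 47 bases next to the start that GENCODE M21 counts as exon were left out. Capitals mark GC boxes of the kind Sp1 binds, searched as GGGCGG on either strand.
Drd2: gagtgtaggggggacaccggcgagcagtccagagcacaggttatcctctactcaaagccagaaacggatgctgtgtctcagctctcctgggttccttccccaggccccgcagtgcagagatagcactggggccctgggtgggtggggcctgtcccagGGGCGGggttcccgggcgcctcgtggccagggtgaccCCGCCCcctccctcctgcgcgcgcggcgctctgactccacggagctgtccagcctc
Drd1: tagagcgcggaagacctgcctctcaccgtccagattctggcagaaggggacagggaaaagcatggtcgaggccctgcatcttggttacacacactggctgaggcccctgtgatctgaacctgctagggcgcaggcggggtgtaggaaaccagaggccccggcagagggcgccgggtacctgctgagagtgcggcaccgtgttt
Drd2 held 2 such boxes, the outer one starting 93 bases upstream of the RefSeq start, and Drd1 held none in the stretch shown. The window of the other Drd1 start, chr13:54054781-54055030, held 1 box, 133 bases upstream of that start, so both receptor genes had a start with a box. A GC box was found in 32.7% of all 32851 windows of 250 bases upstream of RefSeq starts, and in 3 of 11 windows of these genes. A match is a run of letters and does not show binding. The table of start sites had entries for 8 of the 9 genes, all but Ppp1r1b.

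Meis1 and Meis2 were close to level. Both encode TALE homeodomain proteins, and Meis2 marks the lateral ganglionic eminence and its striatal progeny. Its locus is on chromosome 2, 115863064 to 116065839, and Meis2 gave 4314 reads in the knockout library and 3725 in the control library, or 483.6 and 434.3 CPM. Its log2 ratio of 0.16 (0.09 to 0.22) was beyond counting error but far under 1.5-fold. Meis1, on chromosome 11 from 18879817 to 19018985, had 222 and 189 reads, or 24.9 CPM in the knockout library and 22.0 CPM in the control library, a log2 ratio of 0.18 (-0.11 to 0.46). The small excess in the knockout library was of similar size for both genes.

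Zfp503 and Six3 were about 2-fold higher in the knockout library. Zfp503, also called Nolz1, encodes a zinc finger protein of the lateral ganglionic eminence and of direct-pathway neurons. Its locus is on chromosome 14, 21983962 to 21989601, and it gave 300 reads in the knockout library and 144 in the control library, or 33.6 and 16.8 CPM, a log2 ratio of 0.9998 (0.71 to 1.30). Six3, a homeobox gene needed for indirect-pathway neurons and active earlier in the rostral forebrain and eye, is located on chromosome 17, 85613608 to 85629302. Counts were 406 reads in the knockout library and 177 in the control library, or 45.5 and 20.6 CPM, a log2 ratio of 1.14 (0.88 to 1.40), or 1.84-fold to 2.65-fold higher. For both genes the Poisson intervals of the libraries did not overlap, and the knockout library was the higher.

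The Six3 upstream sequence is shown because it was the single window of the 11 to hold the core letters of the Meis binding site, searched as TGACAG on either strand and set in capitals. It covers chr17:85620584-85620833 on the plus strand, and its match starts 139 bases upstream of the RefSeq start.
Six3: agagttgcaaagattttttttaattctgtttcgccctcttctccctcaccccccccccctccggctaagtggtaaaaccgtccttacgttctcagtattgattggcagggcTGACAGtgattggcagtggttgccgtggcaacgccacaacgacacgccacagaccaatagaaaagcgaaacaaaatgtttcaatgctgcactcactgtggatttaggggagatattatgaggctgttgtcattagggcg
The same 6 letters were found in 15.9% of all 32851 windows. Meis2 itself, as given above, was at a log2 ratio of 0.16 (0.09 to 0.22). Whether Meis proteins act on this stretch was not tested.

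Ebf1 and Ikzf1 had the highest ratios of the 9. Ebf1 encodes a helix-loop-helix transcription factor that direct-pathway neurons need to differentiate, and mural cells of brain vessels and B cells also express it. Its locus is on chromosome 11, 44617317 to 45008091, and Ebf1 gave 497 reads in the knockout library and 192 in the control library, or 55.7 and 22.4 CPM, 2.49-fold higher (2.10 to 2.96). Ikzf1 encodes Ikaros, a zinc finger protein of enkephalin neurons of the striatum that is better known from blood and immune cells. Its locus is on chromosome 11, 11685003 to 11772926, and Ikzf1 gave 95 reads in the knockout library and 28 in the control library, or 10.7 and 3.26 CPM, 3.22-fold higher (2.12 to 5.17). In each case the knockout library was the higher beyond counting error.

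Per length of exon, the order of the 9 genes differed between the libraries. In the knockout library Meis2 led at 40.2 RPKM, Ppp1r1b (8.73), Six3 (8.36) and Zfp503 (7.98) followed with overlapping Poisson intervals, and Ebf1 stood at 5.71 RPKM. Drd1 (2.38), Meis1 (2.36), Ikzf1 (1.84) and Drd2 (1.54 RPKM) were the lowest there. In the control library Meis2 was at 36.1 RPKM and Ppp1r1b at 8.72 RPKM, while Zfp503 (3.98) and Six3 (3.79 RPKM) were lower than Ppp1r1b. Drd1, Ebf1 and Meis1 lay at 2.44, 2.29 and 2.09 RPKM in the control library with overlapping intervals, above Drd2 at 0.687 RPKM and Ikzf1 at 0.565 RPKM, whose intervals overlapped each other. Ebf1 therefore stood apart from Drd1 in the knockout library and overlapped it in the control library.

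**Figure D2:**
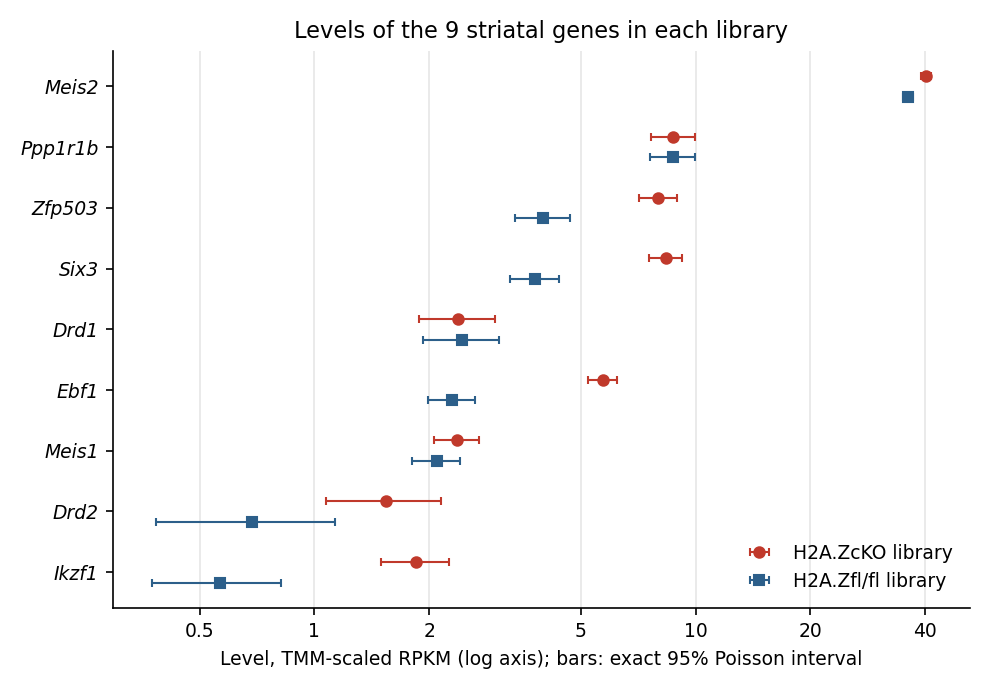
Levels of the 9 genes in TMM-scaled RPKM (x axis, log scale) in the H2A.ZcKO library (circles) and the H2A.Zfl/fl library (squares), with exact 95% Poisson intervals. Ebf1 was at 5.71 RPKM in the knockout library and 2.29 RPKM in the control library, while the Drd1 intervals overlapped at 2.38 and 2.44 RPKM.

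Read ratios between genes within a library need no scaling. In all, 6 such pairs were compared after the values had been seen, with exact conditional 95% intervals on the counts. There were 0.455 Drd2 reads per Drd1 read in the knockout library and 0.197 in the control library, a 2.29-fold difference (1.11 to 4.91). Relative to Ppp1r1b, Drd2 differed 2.24-fold (1.15 to 4.54). Ebf1 and Drd1, both genes of the direct pathway, gave 6.45 Ebf1 reads per Drd1 read in the knockout library and 2.53 in the control library, 2.55-fold apart (1.76 to 3.71). The other 3 pairs kept a ratio near that of the control: Six3 per Drd2 at 0.983-fold (0.486 to 1.90), Ebf1 per Six3 at 1.13-fold (0.879 to 1.45) and Meis1 per Meis2 at 1.01-fold (0.827 to 1.24). Ebf1 of the direct pathway and Six3 of the indirect pathway thus differed by similar folds between the libraries, whereas Drd1 and Drd2 differed by unlike ones.

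The 3 genes on a list that all GABAergic neurons use were higher in the knockout library beyond counting error, 1 of them, Gad2, past 1.5-fold, with a median log2 ratio of 0.56. Gad1 and Gad2, which encode glutamate decarboxylases that make GABA, stood at log2 0.56 (0.42 to 0.70) for Gad1 and 0.78 (0.65 to 0.90) for Gad2, and Slc32a1, the vesicular GABA transporter gene, at 0.52 (0.29 to 0.76). Relative to the summed reads of these 3 genes, a scaling added after the values were seen, Drd1 was at 0.617-fold (0.441 to 0.864) and Ppp1r1b at 0.634-fold (0.519 to 0.775) in the knockout library. Meis1 and Meis2 were at 0.716-fold (0.581 to 0.882) and 0.706-fold (0.654 to 0.761). Above level remained Ikzf1 at 2.07-fold (1.34 to 3.29), Ebf1 at 1.58-fold (1.32 to 1.89), Six3 at 1.40-fold (1.16 to 1.69) and Zfp503 at 1.27-fold (1.03 to 1.57), while Drd2 was at 1.42-fold with an interval that spanned 1 (0.754 to 2.81). On this scale the median of all measured genes lay at a log2 ratio of -0.66, and the 4 genes that were within 1.5-fold under TMM scaling had intervals wholly below level.

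**Figure D3:**
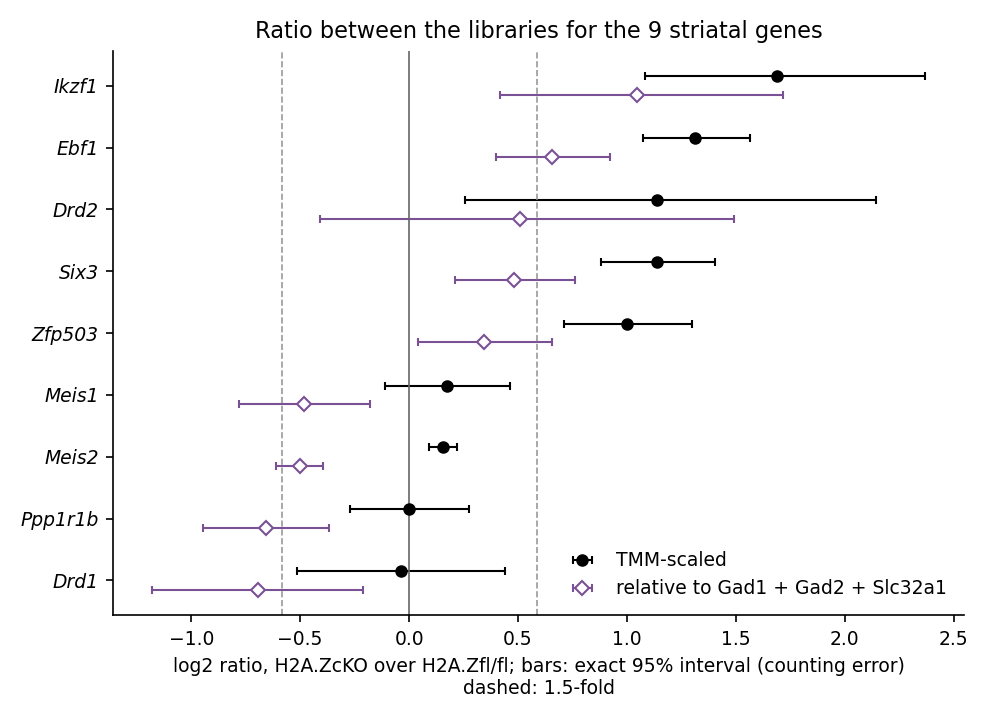
Log2 ratio of H2A.ZcKO over H2A.Zfl/fl for each of the 9 genes (x axis), after TMM scaling (filled circles) and relative to the summed reads of Gad1, Gad2 and Slc32a1 (open diamonds), with exact 95% intervals and dashed lines at 1.5-fold. Under TMM scaling Drd1 lies at -0.04 and Ikzf1 at 1.69, and relative to the GABA genes all 9 points move left, which puts Drd1, Ppp1r1b, Meis1 and Meis2 below 0.

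Other genes of striatal projection neurons were taken from 4 lists of 37 genes. Of 33 measured, 11 were 1.5-fold or more higher with the knockout (3.52% of all measured genes were) and 0 as much lower, with a median log2 ratio of 0.23. Among 7 measured direct-pathway genes 4 were higher, and 2 with at least 100 reads required, Isl1 and Tac1. Within 1.5-fold were 3, Eya1 at a log2 ratio of -0.27 (-0.64 to 0.09), Sfxn1 at 0.10 (-0.05 to 0.25) and Zfp521 at 0.15 (0.01 to 0.29). Isl1, a LIM homeobox gene of striatonigral neurons, was 3.13-fold higher (2.55 to 3.90), with 382 reads in the knockout library and 117 in the control library. Pdyn, the prodynorphin gene, was 2.12-fold higher (1.18 to 4.06), with 38 and 17 reads, and Tac1, the substance P precursor gene, 1.61-fold higher (1.19 to 2.19), with 119 and 71 reads. Slc35d3, which encodes a nucleotide sugar transporter family protein needed for surface delivery of the D1 receptor, had 19 reads in the knockout library and 12 in the control library, and its interval spanned level. Chrm4, the M4 muscarinic receptor gene, had 11 and 6 reads and was not measured.

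Indirect-pathway genes other than Six3 and Drd2 were mostly level. Of 4 measured, only Sp9, a zinc finger gene needed for these neurons, was past 1.5-fold, at 1.56-fold higher (1.36 to 1.79). Penk, the proenkephalin gene, had 37 reads in the knockout library and 35 in the control library, a log2 ratio of 0.02 (-0.68 to 0.73), and Adora2a, an adenosine receptor gene, had 74 and 60 reads, at 0.24 (-0.27 to 0.76). Grik3, a kainate receptor subunit gene, was at 0.23 (0.13 to 0.32). Gpr6, an orphan receptor gene, had 5 reads in each library and was not measured, and Gpr52 is not listed in the table used here. The Drd2 interval of 1.19-fold to 4.42-fold and the Penk interval overlapped.

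Signalling genes of mature striatal neurons had 3 of 14 measured members at least 1.5-fold higher, 0 lower and a median log2 ratio of 0.06. Among the higher genes, Tmem158, a membrane protein gene, was at 0.91 (0.63 to 1.19), and Gnal, which encodes the G protein alpha subunit that couples D1 receptors to adenylyl cyclase, at 0.61 (0.47 to 0.75). Of the 14 measured genes, 10 were above level, whereas Gng7 was at -0.37 (-0.59 to -0.15), below level beyond counting error. Rasd2, a small GTPase gene, was at 0.39 (-0.59 to 1.43), and Scn4b, a sodium channel subunit gene, had 2 reads in the knockout library and 6 in the control library. The list of other striatal transcription factors had 3 of 8 higher and 0 lower, with a median of 0.31. Its higher genes were Rxrg, a retinoid X receptor gene, at 1.52 (1.02 to 2.06), Foxp2 at 0.90 (0.73 to 1.08) and Foxp1 at 0.62 (0.48 to 0.76), both forkhead genes of the striatum. Rarb, a retinoic acid receptor gene of the striatum, was at 0.51 (0.12 to 0.90).

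Paralogs of the 9 genes and partners of the Meis proteins were mostly level. Of 18 paralogs 11 were measured, with 1 at least 1.5-fold higher, 0 lower and a median log2 ratio of 0.10. The higher one was Ebf2, at 0.63 (0.11 to 1.18), and Ebf3 was at 0.51 (0.27 to 0.75), whereas Ebf4 was at -0.31 (-0.62 to -0.01). Ppp1r1a, which encodes another phosphatase 1 inhibitor, was at 0.48 (0.27 to 0.69). All 6 TALE genes of the Pbx and Pknox families were within 1.5-fold, with a median of 0.07. Among them, Pbx3 was at 0.33 (0.19 to 0.46), Pknox1 at 0.16 (-0.04 to 0.36) and Pknox2 at -0.10 (-0.33 to 0.12).

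Some markers of ventral progenitor zones were also higher in the knockout library. Lateral ganglionic eminence progenitor genes had 3 of 9 at least 1.5-fold higher, 0 lower and a median log2 ratio of 0.40, with the homeobox genes Dlx6 at 1.58 (1.19 to 2.01), Gsx1 at 1.35 (0.47 to 2.38), Vax1 at 0.72 (0.16 to 1.30) and Dlx2 at 0.49 (0.36 to 0.61). Medial ganglionic eminence and interneuron genes had 2 of 10 higher, 0 lower and a median of 0.10, and the higher ones were Nkx2-1 at 1.46 (1.21 to 1.72) and Lhx8 at 1.32 (0.90 to 1.77), both ventral patterning genes. Npy and Lhx6, genes of interneurons, were at 0.37 (0.03 to 0.71) and 0.32 (0.18 to 0.46). All 4 cholinergic genes were unmeasured, among them Chat with 3 reads in the knockout library and 2 in the control library.

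Dorsal pallial genes had 0 of 12 past 1.5-fold in either direction and a median log2 ratio of -0.15, and their furthest members were Neurod1 at -0.31, Neurog2 and Eomes at -0.25 each and Lhx2 at -0.22. Their summed level was 3141 CPM in the knockout library and 3400 CPM in the control library. Thalamic and hypothalamic genes had 8 of 11 measured higher and 0 lower, and a summed level of 214.3 CPM in the knockout library and 77.1 CPM in the control library. Tcf7l2, a transcription factor gene of the thalamus, was at 3.13 (2.86 to 3.44), Nkx2-2 and Irx2 were at 3.11 each, and Shox2, with 85 and 0 reads, was at least 27.2-fold higher against a floor of 3 reads per library. Most of the 8 passed the read minimum only through the knockout library, such as Irx2 with 22 reads there and 2 in the control library, and with at least 100 reads required 2 were higher, Tcf7l2 and Otp. Pan-neuronal genes had 1 of 10 higher, Nefl at 1.11 (0.85 to 1.39), 0 lower and a median of 0.15, and the next furthest were Nefm at 0.40, Syt1 at 0.32 and Tubb3 at 0.20. What these regional genes contribute to the striatal differences was not tested.

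**Figure D4:**
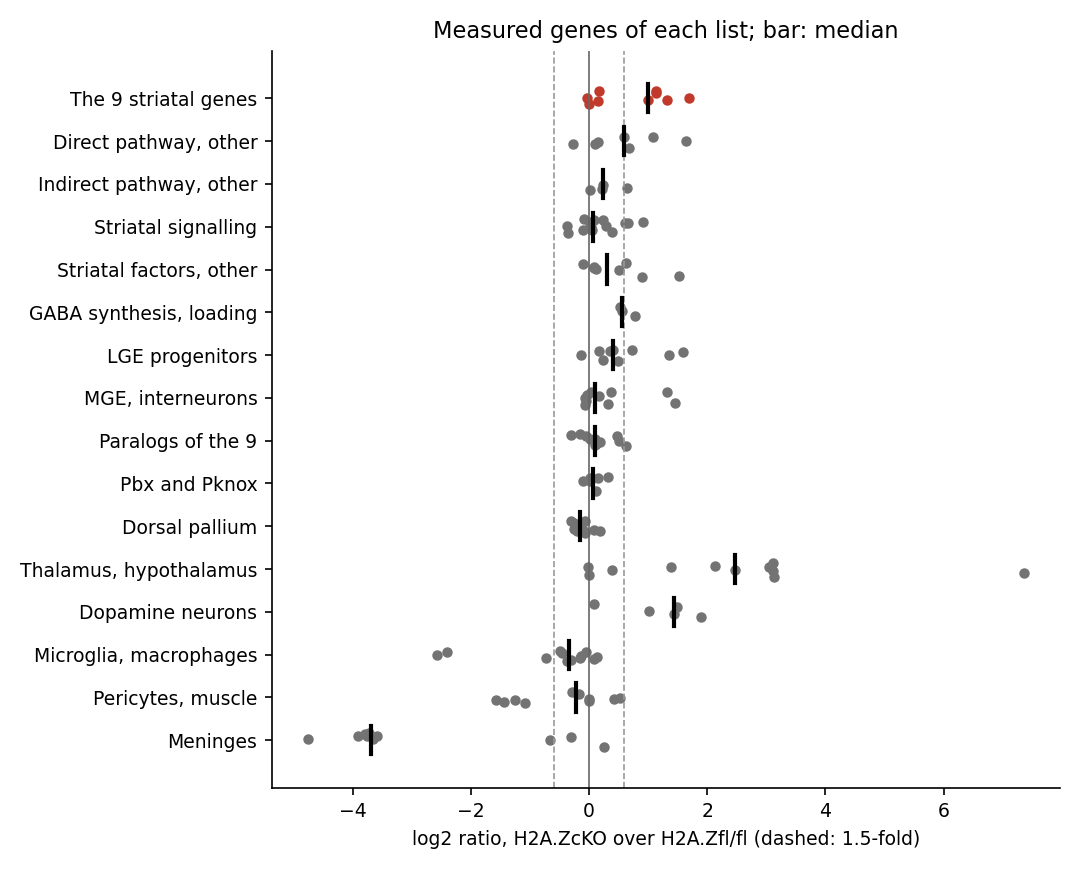
Each point is the log2 ratio of H2A.ZcKO over H2A.Zfl/fl (x axis) of 1 measured gene, in 1 row per gene list, with a black bar at the list's median and dashed lines at 1.5-fold. The 9 striatal genes (red, median 0.9998) run from -0.04 to 1.69, and the dorsal pallial genes (median -0.15) all lie within 1.5-fold. In the thalamic and hypothalamic row most higher genes were measured only through their knockout reads, so its median bar is no summary of that list.

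Genes of other cell types that express Ikzf1 or Ebf1 were mostly within 1.5-fold or lower. Beside Ikzf1, which immune cells express, 0 of 12 measured genes of microglia, macrophages and leukocytes were at least 1.5-fold higher and 3 were lower, and the list summed to 58.4 CPM in the knockout library and 81.5 CPM in the control library. The lower genes were Lyve1, Mrc1 and C1qb, at -2.57, -2.41 and -0.73, and C1qc was at -0.49. Lyve1 had 5 reads in the knockout library and 31 in the control library. Csf1r, with 141 and 128 reads, was at 0.08 (-0.27 to 0.44), P2ry12 at 0.13 (-0.49 to 0.76) and Cx3cr1 at -0.15 (-0.76 to 0.46). Of the 12 measured genes, 2 were above level. Ptprc, the pan-leukocyte gene CD45, had 10 reads in the knockout library and 12 in the control library. What immune cells contribute to the Ikzf1 difference was not tested. Erythroid genes had 0 of 7 higher and 1 lower, Slc4a1 at -0.62 (-1.83 to 0.49), with Hbb-bs at -0.30, Hbb-y at -0.29 and Hbb-bt at -0.28, and summed to 257.7 CPM in the knockout library and 313.6 CPM in the control library. Gata1 and Klf1 are not listed in the table used here.

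Beside Ebf1, which mural cells express, 0 of 10 measured pericyte and smooth muscle genes were at least 1.5-fold higher and 4 were lower, and they summed to 247.1 CPM in the knockout library and 267.0 CPM in the control library. The 4 were Acta2 at -1.57, Anpep at -1.44, Tagln at -1.25 and Vtn at -1.08. Of these, Acta2 had 6 reads in the knockout library and 18 in the control library, and Tagln 12 and 28. Above level beyond counting error were Abcc9, a pericyte channel gene, at 0.52 (0.27 to 0.78), and Cspg4 at 0.42 (0.03 to 0.81). Kcnj8 and Notch3 were at -0.01 and 0.00, and Pdgfrb and Rgs5 at -0.28 and -0.16. What mural cells contribute to the Ebf1 difference was not tested. Endothelial genes had 0 of 9 higher and 1 lower, Slco1a4 with 0 and 33 reads, at least 11.4-fold lower against the floor, with Tek at -0.50, Esam at -0.45 and Slco1c1 at -0.43. Meningeal genes had 8 of 10 lower, among them Col1a1 at -4.76, Dcn at -3.92, Slc6a13 at -3.79 and Col3a1 at -3.76, and choroid plexus genes 9 of 9 lower, with Ttr at -8.97, Slc4a5 at -5.44 and Folr1 at -5.24. Several of these passed the read minimum only through the control library, such as Folr1 with 1 read in the knockout library and 54 in the control library. With at least 100 reads required, 5 meningeal and 6 choroid plexus genes were lower. The choroid plexus list summed to 24.3 CPM in the knockout library and 816.2 CPM in the control library.

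Beside Drd2, which dopamine neurons express, 4 of 5 measured dopamine neuron genes were higher and 0 lower, and the list summed to 91.1 CPM in the knockout library and 64.7 CPM in the control library. Slc18a2, the vesicular monoamine transporter gene, was 2.02-fold higher (1.64 to 2.51), with 280 reads in the knockout library and 133 in the control library. Th, which encodes tyrosine hydroxylase, had 36 and 12 reads, Ddc 29 and 10, and Lmx1b 17 and 4. These 3 had few reads, most of them in the knockout library, and with at least 100 reads required 1 gene of the list was higher, Slc18a2. Slc6a3, the dopamine transporter gene, had 8 reads in the knockout library and 0 in the control library. Their part in the Drd2 difference was not tested. Beside Six3, which the eye and pituitary region expresses early, Six6, Rax, Crx, Pitx1 and Lhx3 are not listed in the table used here, and Mitf, a pigment cell and eye gene, had 12 reads in the knockout library and 29 in the control library. The list of eye and pituitary genes summed to 5.61 CPM in the knockout library and 3.61 CPM in the control library, against 45.5 and 20.6 CPM for Six3 alone. What eye and pituitary tissue contributes to the Six3 difference was not tested.

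Neighbouring genes were mostly level. In position, 4 of the 9 genes, Ikzf1, Ebf1, Meis1 and Ppp1r1b, lie on chromosome 11, of whose 1109 measured genes 2.89% were at least 1.5-fold higher. The nearest measured gene on either side of each of the 9 made 18 neighbours, of which 0 passed 1.5-fold on the higher side and 1 on the lower side, with a median log2 ratio of 0.08. The lower one was Ttc12 next to Drd2, with 8 reads in the knockout library and 28 in the control library, at -1.80 (-3.21 to -0.69). Six2, next to Six3, had 59 and 56 reads. The antisense gene Six3os1 shares 106 exon bases, or 1.95% of the Six3 exons, with Six3, and had 239 reads in the knockout library and 161 in the control library, a log2 ratio of 0.51 (0.22 to 0.81). The kit does not mark strand, so reads of Six3 and Six3os1 in that stretch cannot be told apart. The same holds for 460 bases of Ppp1r1b that a noncoding gene on the other strand, 1700003D09Rik, covers, but that gene had 2 reads in each library, and Meis1 shares 1029 exon bases, or 9.77% of its exons, with Gm37818 on the same strand, which had 13 reads in the knockout library and 6 in the control library. Opposite-strand genes without listed counts also overlap, Gm28528 with 168 exon bases of Six3 and Gm16140 with 896 of Meis1.

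The authors' deposited table marked 3 of the 9 genes as significant, namely Ikzf1, Ebf1 and Six3. Of all 19720 genes, 87 (0.441%) were marked and higher in the knockout according to the authors' deposited table. Zfp503, at 1.96-fold higher with an adjusted p of 1.08e-09 in the authors' deposited table, and Drd2, at 2.19-fold with an adjusted p of 0.0824 there, were not marked. No source used here names the test behind these p-values, and the table holds 1 count column per genotype.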

How the data were processed

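Total RNA of 1 H2A.ZcKO and 1 H2A.Zfl/fl sample was sequenced from libraries made with 2 ug RNA each and a TruSeq kit, per the labels. Bowtie2 2.2.3, TopHat2 2.0.12, HTSeq 0.6.0 and the build mm9 are named, with no roles, in the submitters' processing notes. Gene positions in the deposited table equal those of GENCODE M21 on GRCm38 for 78.8% of genes and overlap them for 99.3%, so coordinates are given as GRCm38.

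Raw read counts per gene, the deposited CPM values (each count divided by 1 constant per library, with 0 entered as 0.5 read), the deposited fold ratio and its log2, control over knockout, and p-values from the authors' test are as the file headers and values show. Listed genes have 2 or more reads when both libraries are summed, and 19616 identifiers matched a symbol. Only the counts were used for computing.

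Counts were scaled by TMM in edgeR 4.0.16 (R 4.3.3), ratios took a prior of 0.5 read, and RPKM used exon lengths of GENCODE M21. With 1 library per genotype no test between genotypes was made and no p-value was computed. Alternatives were library total, upper-quartile and DESeq2 1.42.0 scaling, a prior of 5 reads, no read minimum or 100 reads, a 2-fold threshold, and scaling to GABA genes, which was added after seeing the data. PCR reads are not independent molecules, so intervals and floors cover counting error only. The calculation was tested on simulated data. Python 3.11.15 with pandas 2.3.3, scipy 1.17.1, numpy 2.4.6 and matplotlib 3.10.9 did the remaining work.

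The 9 genes and the 22 other lists were chosen with earlier results of these data known. Named genes are the 9, H2afz and H2afv, up to 4 measured genes furthest from level per list, and unmeasured genes of the direct, indirect and signalling lists. Genes named outside this rule (Neurod6, Chat, Gata1, Klf1, Ptprc, Csf1r, P2ry12, Cx3cr1, Abcc9, Cspg4, Kcnj8, Notch3, Pdgfrb, Rgs5, Slc6a3, Gng7, Eya1, Sfxn1, Zfp521, Nr4a2, neighbours, overlapping genes and eye and pituitary genes) were chosen after their values were seen, and not every gene that the rule names is described. Some genes of these lists are not reported here by name.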

Additional observations from a re-analysis of the deposited data

How the results depend on the processing

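Under library total, upper-quartile and DESeq2 scaling and with a prior of 5 reads, 5 of the 9 striatal genes were at least 1.5-fold higher and 0 lower, as under the settings reported, and the log2 ratios of the 5 ranged from 0.943 for Drd2 with the larger prior to 1.711 for Ikzf1 with DESeq2 scaling. With at least 100 reads required, Drd2 was no longer counted, 4 genes were higher, and the median was 0.587 instead of 0.9998, because fewer genes entered it. Of all genes with at least 100 reads, 1.45% were at least 1.5-fold higher and 1.75% at least 1.5-fold lower. That minimum also lowered the number of higher genes to 2 of the thalamic and hypothalamic list (8 before), 1 of the dopamine neuron list (4) and 2 of the direct-pathway list (4). The number of lower genes fell to 5 of the meningeal list (8), 6 of the choroid plexus list (9), 1 of the mural list (4) and 0 of the erythroid and endothelial lists (1 each). With a 2-fold threshold 4 of the 9 were higher, which 0.961% of measured genes were, and 3 rather than 11 genes on the 4 other striatal lists. On those lists 8 genes were higher under library total scaling and 10 with a prior of 5 reads. With no read minimum 1 gene on those lists was lower, Scn4b, with 2 reads in the knockout library and 6 in the control library. Scaling to the GABA genes, added after seeing the data, gave log2 ratios of 1.030 for Ikzf1, 0.655 for Ebf1, 0.481 for Six3, 0.342 for Zfp503, -0.483 for Meis1, -0.503 for Meis2, -0.657 for Ppp1r1b and -0.696 for Drd1, a median of 0.342, and 2 genes higher and 2 lower. On that scale 2 genes on the other striatal lists were higher and 10 lower. Among all measured genes, 0.55% were at least 1.5-fold higher and 65.5% at least 1.5-fold lower on the same scale. This scaling shifts all ratios down by construction, since the GABA genes were higher in the knockout library. No paired analysis was possible because each genotype has 1 library, and no library could be left out. Depth limits Drd2 most, with 35 reads in the knockout library and 15 in the control library.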
